A study of Mustela putorius furo and Mus musculus with 4 samples.

Results

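The cytosolic ribosomal protein (RP) genes are the rows of the single-cell tables whose symbol is Rpl or Rps followed by a digit, Rplp0, Rplp1, Rplp2 or Rpsa, without the S6 kinases and without rows named as pseudogenes. This rule, which uses symbols and no measured value, found 87 of the 17170 genes of the mouse table and 81 of the 22008 genes of the ferret table, and 80 symbols were in both. The mouse members were 43 large-subunit proteins, 31 small-subunit proteins, the 3 acidic stalk proteins, 9 paralogs of standard RPs and 1 gene, Rps19bp1, that encodes a binding partner of RPS19 and no RP. Rpl36a, Rpl39l, Rpl41, Rpl6l, Rplp1, Rps12 and Rps27rt had no row under that symbol in the ferret table, and RPL26L1 was in the ferret table only.

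A ribosome joins a large subunit, which forms the peptide bond, to a small subunit, which reads the messenger RNA, and each standard RP is usually present once per ribosome. RP messenger RNAs belong to the 5′ TOP class: they begin with a C followed by a run of pyrimidines, and their translation depends on mTOR signalling. In the cortex, radial glia (RG) are the neural stem cells, intermediate progenitor cells (IPCs) are their transit-amplifying daughters, and pyramidal neurons (PyNs) are the excitatory neurons that IPCs produce before RG turn to making glia.

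The study asked what sets how long the cortex makes neurons, with BMP7 and sonic hedgehog (SHH) signalling examined, and the mouse libraries bear on SHH. The mouse data are 1 control library and 1 Smo cKO library from E18 cortex of CD1 mice, in which CellTrace Yellow, a dye that labels cells at the ventricular surface, was injected at E17 and labelled cells were sorted. The Smo cKO carried hGFAP-Cre and Smo F/F, so that the receptor component Smo was lost from cells with a history of hGFAP promoter activity. The control is a wild type in the labels and a Smo F/F littermate in the methods. The ferret data are 2 barcode sets from E39 cortex, which the methods describe as both hemispheres of 1 embryo, with no treatment. Each mouse genotype is therefore 1 library, no test between genotypes was possible, and all intervals below cover counting error only.

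The 4 libraries held 10498 control cells, 7209 Smo cKO cells, and 10185 and 13052 ferret cells after the limits of the study on genes and mitochondrial UMIs (unique molecular identifiers, each counting 1 captured transcript). Median UMIs per cell were 4033.5, 4836, 2556 and 3563. The genotypes were assigned to the barcode sets by their number of cells, and Smo itself had 142 UMIs in 1850 control RG-like cells (14.8 CPM, the UMI count scaled to a common library total) against 4 UMIs in 1429 Smo cKO RG-like cells (0.383 CPM). Cells were placed in classes by the number of class markers with a UMI, none of which is an RP gene, and between 10.4% and 18.3% of cells stayed unassigned. In the mouse, 28 barcodes occurred in both libraries, and 38 occurred in both ferret sets.

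The start of the transcript carries the TOP motif. The first 25 bases of an annotated coding transcript are therefore shown for a few members, picked by ratio or shown beside a paralog. They come from GRCm38 (GENCODE M21) and run 5′ to 3′, with the leading pyrimidine run in capitals. For each gene the coding transcript with the longest pyrimidine run opening with C was chosen, so the starts shown were picked for this feature. Rps9 (chr7:3703993-3706897, plus strand) had the highest ratio of IPC-like to RG-like level in the mouse, and RPS24 had the highest in the ferret; its mouse gene lies at chr14:24487125-24496959 on the plus strand. In the transcripts so chosen, both open with a C and an unbroken pyrimidine run. Rps28 and Rps26, also among the highest ratios in the mouse, do not open with a C and 4 pyrimidines. Rps9 has 6 annotated coding transcripts and Rps24 has 5.
Rps9: CTCTTTgtctcgggcctgagttcgt
Rps24: CTCTTTTCCTCCTCTCCagctccgg

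Rps27 (chr3:90212522-90213651, minus strand), its retrogene Rps27rt (chr9:114982366-114982739, minus strand) and its paralog Rps27l (chr9:66946086-66949516, plus strand), which is known as a p53 target, are shown together because they moved apart. Rps27rt begins as Rps27 does, while Rps27l has no pyrimidine run at its first base. A C followed by 4 pyrimidines does lie within the first 15 bases of Rps27l, and also of Rpl22. Rpl22 (chr4:152325742-152334071, plus strand) and its paralog Rpl22l1 (chr3:28805436-28807424, plus strand) are shown as a further pair, and neither opens with a C and 4 pyrimidines.
Rps27: CCTTTCCggcggtgacgacctccct
Rps27rt: CTTTCCggcggtgacgacctcccta
Rps27l: gcctctatcccggaagttgctgagg
Rpl22: CTgcctcctctgccgccatggcgcc
Rpl22l1: gttgcgtatttcgcacgctctgcgt

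A C followed by 4 pyrimidines (C or T) at the first annotated base was present in 22 of 77 standard mouse RPs (28.6%), against 5.74% of 14816 protein-coding genes in the table. Within the first 15 bases it was present in 38 of them (49.4%), against 20.5% of all genes. The transcript was chosen by the same rule for all genes, and genes with more annotated coding transcripts had more starts to choose from. An annotated start can lie upstream or downstream of the start used in these cells, so a missing run says only that it was not found at the place searched.

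RP messenger RNAs made up a large part of every library: 21.8% of all UMIs in the control, 19.9% in the Smo cKO, and 16.4% and 13.2% in the ferret sets. Of the 100 most abundant genes, 61, 58, 54 and 54 were members. UMIs count captured transcript ends and were not scaled by length, so levels are given as CPM. The order of members describes these libraries, since the ferret levels moved with coding length, as given further on. The highest in the mouse were small proteins: Rpl41 had 7445 CPM in the control and 7141 in the Smo cKO, Rps29 had 7227 and 7117, and Rps28 had 6162 and 5641. Rpl39, at the exit tunnel, had 5993 and 5196 CPM, and Rpl37 had 5418 and 4861. The ferret order differed. RPS27A, which is made as a fusion with ubiquitin, had 5893 CPM in set 1 and 3986 in set 2, RPS24 had 5569 and 3888, RPS28 had 5315 and 2478, RPL30 had 4964 and 3236, and RPL37 had 4590 and 2715. The 10 highest members held 24.5% to 28.4% of RP UMIs in each library, so no small group of genes carried the share.

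Of the mouse members, 83 had at least 200 UMIs in each library, as did 79 in the ferret. The mouse genes below that level were paralogs: Rpl10l with 3 and 0 UMIs, Rpl3l with 6 and 21, Rpl39l with 15 and 29, and Rpl6l with 146 and 144. All paralogs together took 1.37% and 1.35% of RP UMIs in the mouse libraries and 0.794% and 0.680% in the ferret sets. Over the 80 shared members, the share of RP UMIs had a Spearman rho of 0.553 between mouse and ferret, and 61 members lay within 2-fold. Rpl29, at 64.6 and 60.7 CPM in the mouse against 2287 and 1804 in the ferret, was far apart. These correlations are across genes, which share each library and are not replicates. In the mouse, 59 members share at least 1 window of 50 bases in the last 300 bases of the transcript with another annotated gene, and for 44 more than 50% of the windows are shared, so reads may have been split or lost among near-identical copies.

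The RP share differed between cell classes, and at the progenitor end the order was the same in all 4 libraries. IPC-like cells had the higher share: RG-like and IPC-like cells had 21.3% and 25.9% in the control, 19.7% and 23.5% in the Smo cKO, 15.9% and 19.9% in ferret set 1, and 12.9% and 16.9% in set 2. The IPC-like share was higher by 21.2%, 19.1%, 25.3% and 31.2% of the RG-like share, and the 95% intervals of the ratio were 1.21 to 1.21, 1.19 to 1.19, 1.24 to 1.27 and 1.30 to 1.32. The spread over cells was wider than these intervals, with a middle range of 17.5% to 24.5% in control RG-like cells and 22.6% to 28.7% in control IPC-like cells. Per cell, control RG-like and IPC-like cells had 1106 and 1152 RP UMIs and 4075 and 3299 other UMIs, and the higher share went with fewer other UMIs. In the Smo cKO the RP UMIs per cell were 1444 and 1253 and the other UMIs 5871 and 4077. Whether a cell held more RP messenger RNA or less of other RNA cannot be told apart from shares alone.

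**Figure D1:**
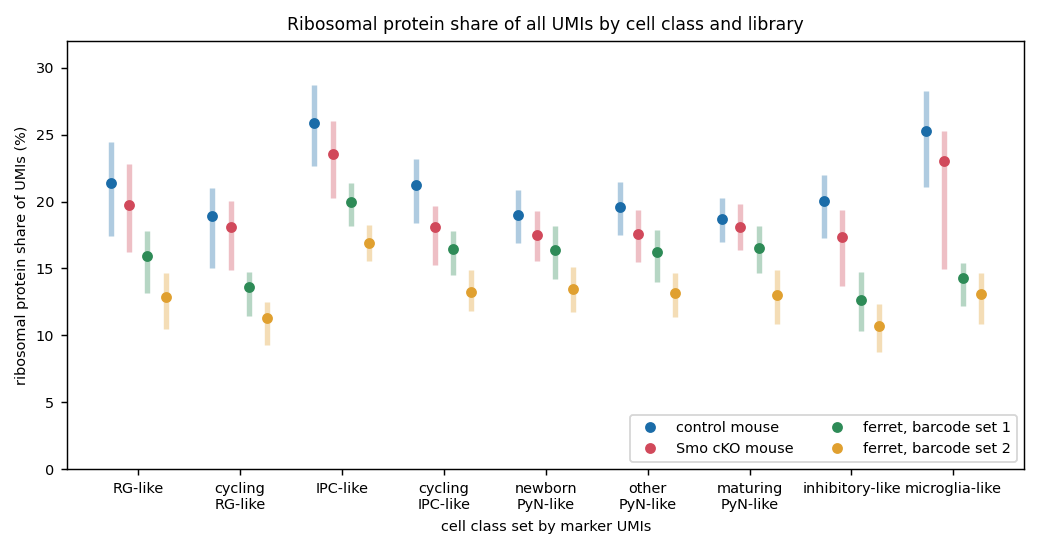
RP share of all UMIs (%, points) in 9 cell classes for the control mouse, the Smo cKO mouse and the 2 ferret barcode sets; bars span the interquartile range over cells. IPC-like points stand above RG-like points in each of the 4 libraries, and the PyN-like points lie below RG-like ones in the mouse only.

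Cycling RG-like and IPC-like cells had lower shares than the others of their class. The ratio of cycling RG-like to RG-like share was 0.886, 0.916, 0.856 and 0.875 in the control, the Smo cKO and the 2 ferret sets. For cycling IPC-like over IPC-like cells it was 0.820, 0.770, 0.824 and 0.784. The drop from IPC-like to newborn PyN-like cells, those with Neurod1 or Unc5d and no Mef2c, was also seen in each library, with ratios of 0.735, 0.743, 0.821 and 0.795. Newborn and maturing PyN-like cells (with Mef2c) were close to each other, at 0.984, 1.03, 1.01 and 0.968.

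Relative to RG-like cells, the PyN-like classes went in opposite directions in the 2 species. The ratio of maturing PyN-like to RG-like share was 0.876 (0.871 to 0.881) in 155 control cells and 0.916 (0.908 to 0.923) in 64 Smo cKO cells, and it was 1.04 (1.03 to 1.05) and 1.01 (1.01 to 1.02) in the ferret sets. Taking all PyN-like cells, it was 0.895, 0.887, 1.03 and 1.02. This difference between species was not tested, and the species also differ in age, sorting, annotation and depth, which cannot be told apart from it. RG-like cells in the ferret also carried more PyN marker UMIs, with a summed level of the 8 PyN markers of 1133 and 1145 CPM against 257 and 192 CPM in mouse RG-like cells, and the part of this in the ratio was not tested.

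Outside the excitatory lineage, inhibitory-like cells had 20.1% and 17.3% in the mouse libraries and 12.6% and 10.7% in the ferret sets, below RG-like cells in each. Microglia-like cells had 25.3% and 23.0% in the mouse, with ratios to RG-like cells of 1.18 and 1.16, but 14.3% and 13.1% in the ferret, with ratios of 0.90 and 1.01. Small-subunit over large-subunit UMIs was 0.819 and 0.824 in mouse microglia-like cells against 0.767 and 0.75 in RG-like cells. Cycling IPC-like cells, at 0.806 and 0.806, and inhibitory-like cells, at 0.796 and 0.804, lay between these. Glial MIPC-like cells (multipotent intermediate progenitors, with Egfr and the Olig genes) were few in the mouse, with 27 control and 10 Smo cKO cells at 27.9% and 30.1%, and 55.6% and 80.0% of them had markers of more than 1 class. Their ratios to RG-like cells were 1.31 and 1.52 in the mouse, and 1.03 and 0.915 in the ferret sets, at 16.4% and 11.8%.

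Member by member, the higher share in IPC-like cells extended over most genes of the set. In the control, 72 of 83 members were above 1 and 24 were higher by at least 0.32 on the log2 scale, the fold used for counts here, beside 24.6% of all 8079 genes with enough UMIs. The middle log2 ratio of the members was 0.26, against -0.01 for all genes. In the Smo cKO, 71 of 83 were above 1 and 26 were past this fold, beside 28.1% of all genes. The ferret counts were 74 of 76 above 1 and 37 past the fold in set 1, beside 27.9%, and 76 of 78 above 1 and 47 past it in set 2, beside 26.4%. The mouse members past the fold were thus near the share of all genes. The counts above 1 are given without the share of all genes above 1.

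By the mean of the 2 mouse libraries, the highest ratio was that of Rps9 (2619 CPM in RG-like and 3771 in IPC-like control cells, 2332 and 3501 in the Smo cKO). Rps28 and Rps26 were also among the 5 highest, with log2 ratios of 0.47 and 0.45 in the control. In the ferret, RPS24 went from 4247 to 6957 CPM in set 1 and from 2626 to 4968 in set 2, log2 ratios of 0.71 and 0.92, and RPS25, RPL31, RPL37A and RPL39 came next. Mouse Rps24 had log2 ratios of 0.41 and 0.36. The 22 mouse RPs that open with a C and 4 pyrimidines had medians on the log2 scale of 0.36 (control) and 0.34 (Smo cKO), and the 55 others 0.25 and 0.22, with middle ranges that overlap (0.21 to 0.40 and 0.16 to 0.32 in the control).

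The members with the lowest IPC-like to RG-like ratios in the mouse were mostly paralogs. Rpl7l1, Rps27l, Rpl36al and Rpl22l1 had log2 ratios of -0.42, -0.31, -0.37 and -0.35 in the control and -0.51, -0.59, -0.38 and -0.38 in the Smo cKO. Rps19bp1 was the fifth, at -0.19 and -0.26. Of the paralogs with enough UMIs, Rps27rt alone was higher in IPC-like cells, at 0.27 and 0.36. In the ferret RPL22L1 was lower too, at -0.27 and -0.46, but RPS27L was higher in IPC-like cells, with 704 and 1087 CPM in set 1 and 622 and 833 in set 2. RPL36AL was at 0.16 and 0.01.

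**Figure D2:**
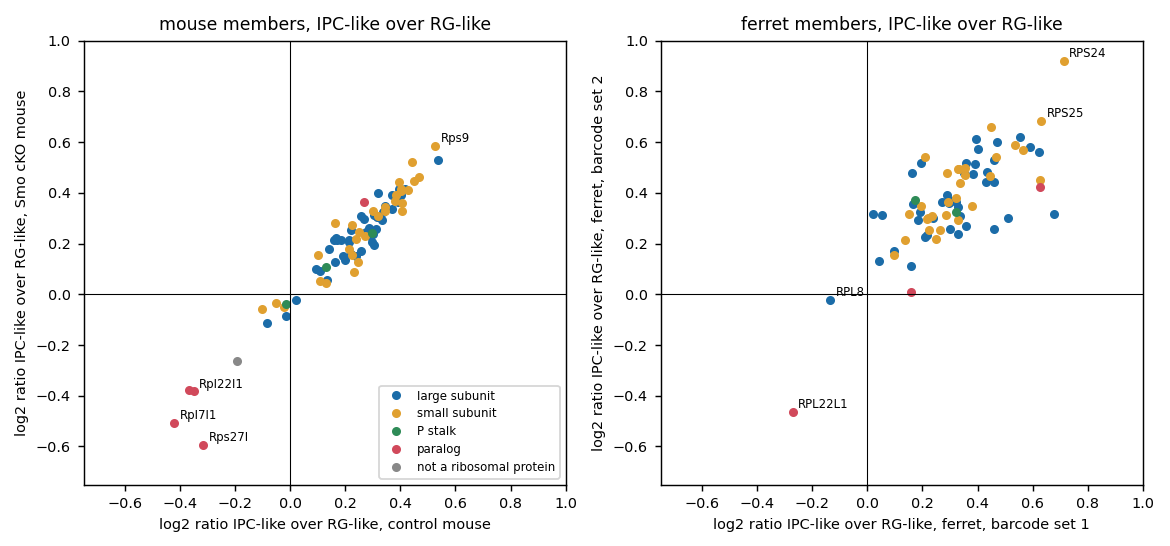
Log2 ratio of each member's UMI share in IPC-like over RG-like cells, with 1 mouse library or ferret barcode set on each axis and 1 point per member, coloured by kind. Most points lie above 0 on both axes, while 4 mouse paralogs and ferret RPL22L1 lie below 0 on both.

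The paralogs Rps27l and Rpl22l1 had the lowest ratios of maturing PyN-like to RG-like level in both species, by the mean over the 2 libraries or sets. Rps27l had 637 CPM in control RG-like cells, 512 in IPC-like, 336 in newborn and 294 in maturing PyN-like cells. In the Smo cKO these levels were 909, 602, 339 and 349 CPM. Ferret RPS27L had 704 CPM in RG-like cells, 369 in newborn and 281 in maturing PyN-like cells of set 1, and 622, 237 and 184 in set 2. Its standard counterpart Rps27 moved less, with 4056 CPM in control RG-like cells, 4158 in newborn and 3618 in maturing PyN-like cells. Rpl22l1 went from 1904 CPM in control RG-like cells to 931 in newborn and 977 in maturing PyN-like cells, and from 1525 to 760 and 838 in the Smo cKO. Ferret RPL22L1 went from 529 CPM to 285 and 383 in set 1 and from 439 to 161 and 252 in set 2. Rpl22, its standard counterpart, went from 1734 to 1306 CPM between control RG-like and maturing PyN-like cells, a log2 ratio of -0.41 against -0.96 for Rpl22l1.

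Most standard RPs moved less. Of 83 mouse members, 68 were below 1 in newborn PyN-like over RG-like cells in each library, and 23 in the control and 20 in the Smo cKO were lower by at least 0.32, beside 31.0% and 30.7% of all genes. For maturing PyN-like cells 73 and 65 were below 1, and 17 and 12 were past the fold, beside 40.8% and 42.1% of all genes, with median log2 ratios of -0.19 and -0.09 against -0.14 and -0.15 for all genes. After the paralogs, the lowest were Rpl41 (-0.48 and -0.59) and Rps18 (-0.48 and -0.40). The highest were Rps19bp1 (0.40 and 0.23), Rps7 (0.23 and 0.14), Rpl23a (0.02 and 0.31) and Rpl38 (0.21 and 0.10). RPL38 is the protein that tail-short mice lack 1 copy of.

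In the ferret the members lay on both sides of 1. Over all PyN-like cells, 47 were above 1 and 32 below in set 1, and 43 and 36 in set 2; 12 and 14 were lower by at least 0.32 on the log2 scale, beside 33.2% and 35.5% of all genes. RPL7A, RPL36 and RPL8, all of the large subunit, were among the lowest of maturing PyN-like over RG-like cells, at -0.61, -0.54 and -0.54 in set 1 and -0.63, -0.62 and -0.60 in set 2. RPL26L1, a paralog of RPL26, was the highest, at 0.80 and 0.61, with 61.8 and 108 CPM in set 1.

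The stalk proteins, which recruit translation factors to the large subunit, did not move as 1 unit. Rplp1 had log2 ratios of newborn PyN-like over RG-like cells of -0.71 in the control and -0.77 in the Smo cKO, whereas Rplp0, to which it binds, was at -0.24 and -0.32 and Rplp2 at -0.28 and -0.26. In ferret maturing PyN-like cells RPLP0 was higher than in RG-like cells (2699 and 3967 CPM in set 1, 2372 and 3261 in set 2) and RPLP2 lower (3112 and 2370, 2184 and 1700). Rplp1 has no ferret row of that symbol.

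Other proteins with known roles followed the class pattern to different degrees. Rpl5 and Rpl11, which bind MDM2 together with 5S RNA when ribosome assembly fails, had log2 ratios in IPC-like over RG-like cells of 0.17 and 0.22 in the control and 0.22 and 0.16 in the Smo cKO. Rps6, the target of the S6 kinases, had 668, 780 and 522 CPM in control RG-like, IPC-like and maturing PyN-like cells and 609, 736 and 547 in the Smo cKO. Rps19, mutated in Diamond-Blackfan anaemia, had 3181, 3758 and 2690 CPM in the control and 2690, 3129 and 2544 in the Smo cKO. Rpsa, also known as the laminin receptor, was nearly level from RG-like to IPC-like cells, at 0.11 and 0.05, and lower in newborn PyN-like cells, at -0.49 and -0.55. Rpl3, at the peptidyl transferase centre, was at 0.27 and 0.30 in IPC-like cells and at -0.44 and -0.39 in newborn PyN-like cells. Rpl10, a late-joining subunit protein, was at 0.20 and 0.14, and at 0.00 and -0.07. Rps14, a core small-subunit protein, was higher in newborn PyN-like cells, at 0.15 and 0.14, and Rps3, at the mRNA entry site, was at -0.18 and -0.12.

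Most listed translation partners of the RPs were above 1 in IPC-like over RG-like mouse cells, and most ribosome assembly genes were below 1. These lists were chosen with earlier results of these data known. The share of all genes on either side of 1 is not given here. Of the RP genes outside the symbol rule, Fau and Gnb2l1 (RACK1 in the ferret table) were above 1 in all 4 libraries. Fau had 3834 CPM in RG-like and 5066 in IPC-like cells of the control, and 3411 and 4460 in the Smo cKO. Of 17 translation factors and partners with TOP messenger RNAs, 15 were above 1 in each mouse library, with medians of 0.18 and 0.32. Hnrnpa1 was 1.81-fold and 2.29-fold higher, and Eef1d had ratios of 0.547 and 0.582. Of the ribosome assembly genes, 20 of 23 were below 1 in the control and 19 of 22 in the Smo cKO, with medians of -0.31 and -0.29. Nucleolin (Ncl) had ratios of 0.819 and 0.854, nucleophosmin (Npm1) 0.846 and 0.879, and the small-subunit assembly factor Ltv1 0.349 and 0.584, against 1.49 and 1.70 for Rrn3, an RNA polymerase I factor. Mitochondrial ribosomal proteins were below 1 in 49 of 75 in the control and 50 of 76 in the Smo cKO, with a median of -0.08 in both. Of 15 growth signalling genes, 9 were above 1 in each. The lowest was Eif4ebp1, a repressor of cap-dependent translation, with ratios of 0.132 and 0.215, and the highest Mxd1, a MYC antagonist, with 1.98 and 2.26. Mycn, an activator of ribosome production, had ratios of 0.718 and 0.415.

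Between genotypes, the RP share was lower in the Smo cKO in most classes. In RG-like cells it was 21.3% in the control and 19.7% in the Smo cKO, a ratio of 0.925 (0.923 to 0.927). The ratios were 0.956 in cycling RG-like, 0.908 in IPC-like, 0.852 in cycling IPC-like, 0.919 in newborn PyN-like, 0.967 in maturing PyN-like, 0.864 in inhibitory-like and 0.910 in microglia-like cells. Microglia arise outside the neural lineage in which hGFAP-Cre is active, and what lies behind their ratio was not tested. Mural-like cells, 17 in the control and 16 in the Smo cKO, were level at 1.00 (0.979 to 1.02). Endothelial-like cells, 37 and 16, had 1.02, and 56.8% and 75% of them had markers of more than 1 class. The few glial MIPC-like cells had 1.08. Cycling glial MIPC-like cells, 46 in the control and 7 in the Smo cKO, had 1.15 (1.14 to 1.17). In all, 12 of 15 classes were below 1, counting unassigned cells, erythroid-like cells (7 in the control and 2 in the Smo cKO) and mural-like cells, whose interval spans 1. The 2 barcode sets of the ferret, with no difference in genotype, differed by more: the ratio of set 2 to set 1 was 0.812 in RG-like cells and below 1 in all 14 classes with cells in both, from 0.719 to 0.915.

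Several measures moved with genotype. Median UMIs of RG-like cells were 4675 in the control and 6972 in the Smo cKO. Within windows of UMIs per cell, the RG-like ratio was 0.963 at 2000 to 3000 UMIs and between 0.904 and 0.916 in the 4 windows from 3000 upwards, and 22 of 25 ratios over all classes and windows were below 1, counting windows of all PyN-like cells beside those of newborn and maturing ones. The ratios above 1 were those of cycling RG-like cells at 3000 to 5000 UMIs (1.04) and at 5000 to 8000 UMIs (1.01), and of maturing PyN-like cells at 5000 to 8000 UMIs (1.04). The summed level of the 6 erythroid markers found in the mouse was 533 CPM in control and 139 in Smo cKO RG-like cells. That of the PyN markers was 257 and 192, and that of the microglia markers 2.71 and 10.5. At least 3 markers of more than 1 class were found in 26.3% of control and 24.4% of Smo cKO RG-like cells, and in 28.3% and 47.0% of IPC-like cells. The part of these measures in the result was not tested.

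**Figure D3:**
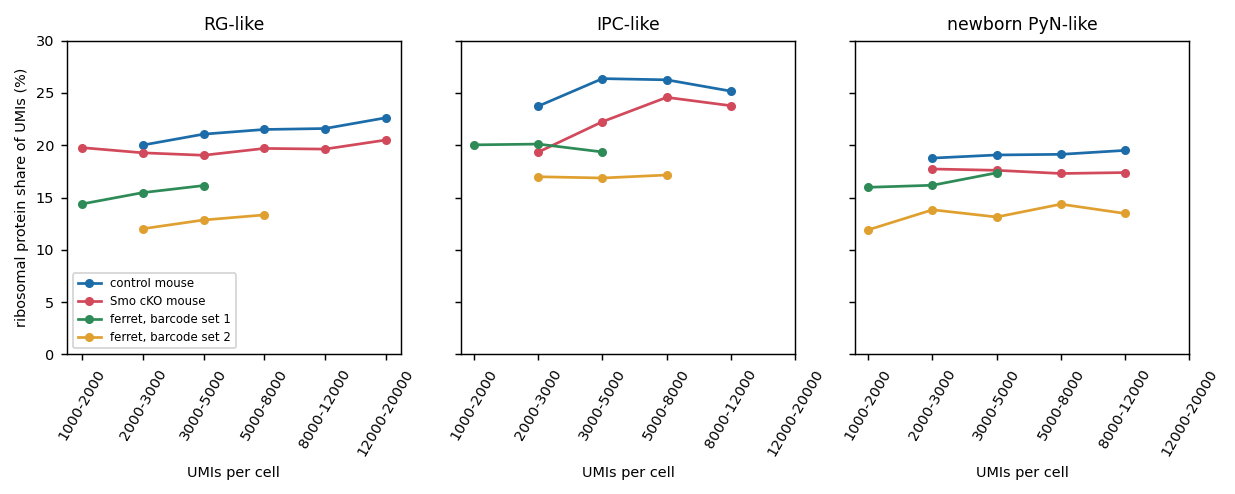
RP share of UMIs (%) in windows of UMIs per cell for RG-like, IPC-like and newborn PyN-like cells of the 4 libraries, with a point for each window of at least 20 cells; counting intervals are drawn and mostly narrower than the points. Smo cKO points lie below control points at each shared depth in these 3 classes.

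RG-like cells of the 2 genotypes also lay in different clusters. Clustering was done without RP genes and gave 21 clusters, which are given by number. Cluster 9, led by Sparcl1, Entpd2, Hgf and the SHH target Ptch1, held 42.8% of control and 2.87% of Smo cKO RG-like cells. Cluster 11, led by S100a4, Tm4sf1, Ephx1 and Prm1, held 1.57% and 56.2%. Cluster 7, led by Crh, Gadd45g, Dll1 and the IPC marker Insm1, held 27.9% and 20.4%, and cluster 14, led by neuronal genes such as Slc17a6 and Neurod1, held 17.3% and 8.40%. The RP ratio of Smo cKO to control RG-like cells was 0.799 in cluster 9, 0.894 in cluster 11, 0.933 in cluster 7, 0.953 in cluster 14, 0.955 in cluster 15 and 0.914 in cluster 17, which are the clusters with at least 20 such cells of each genotype. The commonest class of cluster 15 was IPC-like, and cluster 17 was led by S100a8, S100a9 and haemoglobin genes, with 41.7% of its cells RG-like. Over all cells, 19 of 20 clusters with at least 20 cells of each library had the lower share in the Smo cKO. In the control, RG-like shares in these 6 clusters ran from 18.6% in cluster 9 to 25.8% in cluster 15.

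Across members in RG-like cells, 67 of 83 were lower in the Smo cKO. Their median log2 ratio was -0.12 with a middle range of -0.18 to -0.03, against -0.01 and -0.16 to 0.15 for all 8101 genes with enough UMIs. Lower by at least 0.32 on the log2 scale were 5 members, beside 10.8% of all genes, and 1 was higher by as much, beside 10.6%. Large-subunit and small-subunit members had the same median, -0.13. In the other classes 75 of 83 were below 1 in IPC-like, 74 of 83 in newborn PyN-like, 74 of 82 in microglia-like and 53 of 79 in maturing PyN-like cells. The share of all genes below 1 in these classes is not given here, so these counts are not set against a background.

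**Figure D4:**
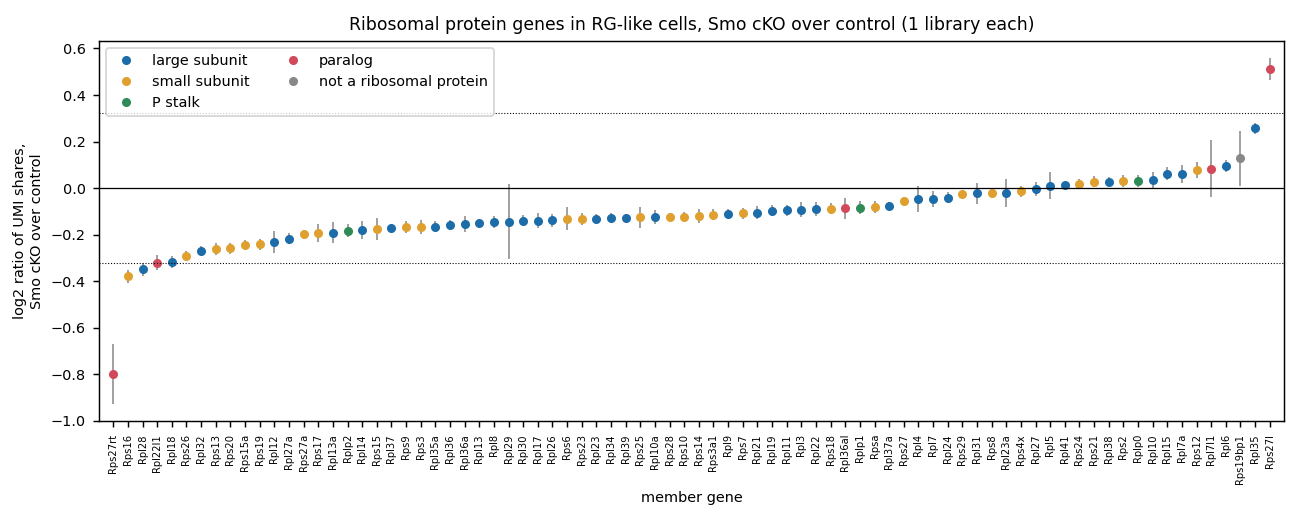
Log2 ratio of UMI shares, Smo cKO over control, in RG-like cells for 80 members with at least 200 UMIs, ordered by value and coloured by kind; lines are 95% counting intervals and dotted lines mark 0.32 to either side of 0. The paralogs Rps27rt and Rps27l stand at the lower and upper ends, and most members lie below 0; 3 members are not shown.

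The 3 lowest members were Rps27rt, Rps16 and Rpl28. Rps27rt had 132 CPM in the control and 75.7 in the Smo cKO, a ratio of 0.575 (0.526 to 0.629), and was lower by at least 0.32 on the log2 scale in all 6 neural classes where it had enough UMIs. Its parent gene Rps27 had 4056 and 3898 CPM, a ratio of 0.961, and 88.4% of the windows in the last 300 bases of Rps27rt are shared with other genes. Rps16 had 2222 and 1708 CPM, and Rpl28 2239 and 1758. Rpl22l1 had 1904 and 1525 CPM, a ratio of 0.801. Rps27rt, Rps16 and Rpl28 were below 1 in each of the 6 clusters compared.

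The highest member was Rps27l, with 637 CPM in the control and 909 in the Smo cKO, a ratio of 1.43 (1.38 to 1.47). The ratio was 1.17 in cycling RG-like, 1.18 in IPC-like and 1.01 in newborn PyN-like cells, and 0.737 in inhibitory-like cells. Within clusters it was 0.709 in cluster 9, 1.05 (0.890 to 1.24) in cluster 11, 1.24 in cluster 7 and 1.37 in cluster 14. It was 1.49 in cluster 15 and 1.11 (0.896 to 1.37) in cluster 17. The value in cluster 9 rests on 124 UMIs in 41 Smo cKO cells. Cluster 11, where most Smo cKO RG-like cells lay, had 932 CPM in its 29 control cells and 975 in its 803 Smo cKO cells, and control cells of cluster 9 had 624. Rpl35, a protein of the exit tunnel rim, was the second, with 2958 and 3534 CPM and a ratio of 1.19 (1.18 to 1.21). Its ratio was above 1 in each of the 6 clusters, up to 1.24 in cluster 15. The lowest was 1.06 in cluster 9, where the interval spans 1 (0.982 to 1.14). Rps19bp1, Rpl6 and Rpl7l1 followed with log2 ratios of 0.13, 0.10 and 0.08.

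Of the proteins with known roles, Rplp0, Rpl5, Rpl10 and Rpl38 had ratios of 1.02, 1.01, 1.02 and 1.02 in RG-like cells, and Rpl3, Rpl11, Rpl22, Rps3, Rps6, Rps14 and Rpsa lay between 0.891 and 0.945. Rps19 had 0.846, and the stalk proteins Rplp1 and Rplp2 had 0.944 and 0.881. The paralog Rpl36al was at 0.942. Of the other lists, 20 of 23 ribosome assembly genes were below 1 with a median of -0.15, with Ncl at 0.851 and Npm1 at 0.965. The TOP translation factors were divided, with 8 above and 9 below 1, and Eef1a1 had 1.09, Hnrnpa1 0.724 and Eif4b 0.786. Mitochondrial ribosomal proteins were above 1 in 40 of 76. Outside the symbol rule, Fau had 0.890 and Gnb2l1 0.970. Growth signalling genes with enough UMIs lay on both sides of 1, from Mycn at 0.666 to Tsc1 at 1.32, with Mtor at 0.999.

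The 2 ferret barcode sets differed in a way that followed the length of the gene. Over 73 standard members, the log2 ratio of set 2 to set 1 over all cells had a Spearman rho of 0.710 with the coding length of the mouse gene, given as a description across genes. All 19 members with coding lengths up to 384 bases were lower in set 2, with a median of -0.62, while 14 of the 19 from 624 bases upwards were higher, with a median of 0.24. RPS28 had 5315 and 2478 CPM, whereas RPSA had 592 and 1187. RPL14, with 651 coding bases and a ratio of 0.411, was an exception. For the 77 standard mouse members the rho between genotypes was 0.160, with medians of -0.13 in the 21 shortest and -0.08 in the 21 longest. The ferret levels of single members are therefore given for each set, and the ratios between classes given above were taken within a set.

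**Figure D5:**
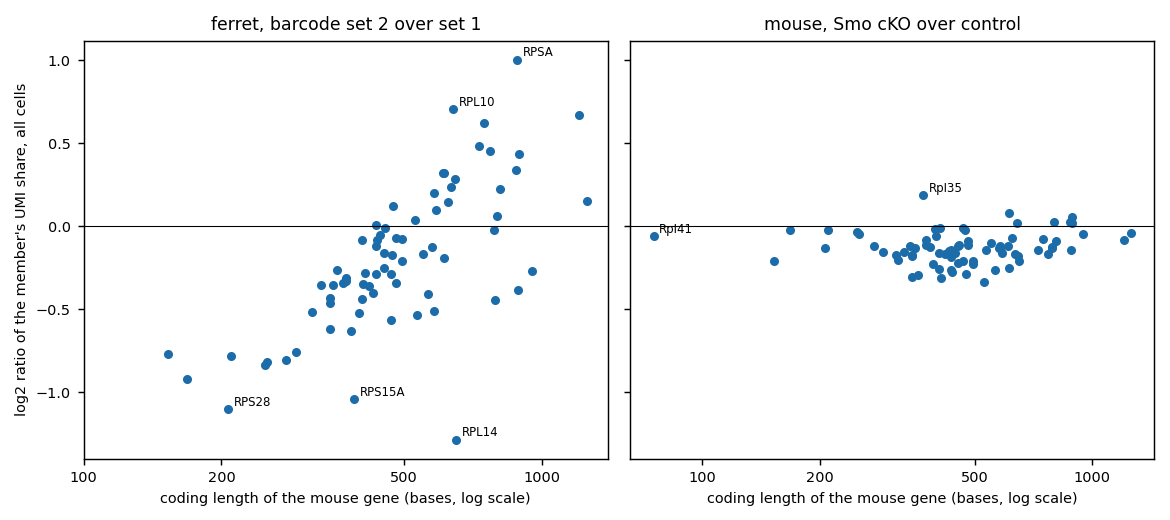
Log2 ratio of each standard member's UMI share between libraries over all cells (vertical axis) against the coding length of the mouse gene in bases (log scale), for ferret barcode set 2 over set 1 and for Smo cKO over control. Ferret points rise with length, with a rho of 0.710, while mouse points stay near a level, with a rho of 0.160.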

How the data were processed

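Single-cell RNA sequencing libraries (10x) were analysed from 1 control and 1 Smo cKO mouse cortex and from ferret cortex in 2 barcode sets. The authors deposited raw UMI counts per gene and cell, made with Cell Ranger; their processing notes also list mm10, StringTie and Seurat 3, and the ferret build is not given in the sources used here. No deposited column of per-sample values was left unused (0). The mouse barcode sets were taken as control (10524 deposited cells) and Smo cKO (7596) by their cell numbers, and the ferret sets were not tied to the 2 ferret samples.

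Cells with 750 to 5000 genes and under 10% mitochondrial UMIs were kept, and no doublet caller was run. Between 5.33% and 32.5% of cells of a library had at least 3 markers of more than 1 class. A cell took the class with the most markers detected, at least 3. Each class had 8 listed markers, of which 6 to 8 were found in the mouse and 2 to 8 in the ferret. The ferret had 2 of the erythroid markers, so no ferret cell could be erythroid-like. At least 3 cycling markers made a cell cycling. UMIs were summed per class and library (libraries of 30548876 to 56090792 UMIs). Shares have exact Clopper-Pearson and ratios exact conditional binomial intervals (95%), and both cover counting error only. Genes needed 200 summed UMIs and were counted past 1.25-fold; no test across samples was possible with 1 library per group. Counts of members or list genes above or below 1 are given without the share of all genes on that side, and describe direction only. These calculations were tested on simulated data. The members and lists were chosen with earlier results of these data known. Genes named are the 5 most abundant, the paralogs and role examples, the 5 highest and 5 lowest ratios per comparison and the extremes of each list. Clusters (2000 variable genes without RPs, 30 components, 20 neighbours, Leiden resolution 1.5) used leidenalg 0.10.2 and scikit-learn 1.9.0, with Python 3.11.15, numpy 2.4.6, scipy 1.17.1 and pandas 2.3.3. Coding lengths and transcript starts came from GENCODE M21 (GRCm38); starts were matched by symbol for 86 of 87 mouse members, choosing the coding transcript with the longest C-led pyrimidine run for members and all other genes. Class thresholds, cell filters, denominators, member sets, depth, clusters and centring were varied. The length relation, values within clusters and depth windows were chosen after seeing the data. Some members, list genes and a split of RG-like cells are not reported here.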

Additional observations from a re-analysis of the deposited data

Results flagged for a closer look

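The RP share of neurons relative to RG-like cells went in opposite directions in mouse and ferret. For all PyN-like over RG-like cells the ratio was 0.895 in the control and 0.887 in the Smo cKO, and 1.03 and 1.02 in ferret sets 1 and 2. For newborn PyN-like cells it was 0.891 and 0.885 in the mouse and 1.03 and 1.04 in the ferret, and for maturing PyN-like cells 0.876 and 0.916 against 1.04 and 1.01. The difference between species was not tested, and each species is 1 animal or 1 library per genotype.

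Outside the members, the 12 mouse rows named as RP pseudogenes held a summed 125 CPM in the control and 95.9 CPM in the Smo cKO, above the limit that a count of 0 allows.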

How the results depend on the processing

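Under the alternatives run for them, none of the 4 ratios given here crossed 1, and the number of members higher in Smo cKO RG-like cells stayed between 11 and 18 against 16 as reported. Since counting intervals are narrow, small shifts exceed them. The RG-like genotype ratio of 0.925 became 0.930 with 4 markers and with the mean share per cell, 0.910 without cells holding markers of more than 1 class, 0.927 with clusters and 0.922 with cells of 3000 to 8000 UMIs. The control maturing PyN-like over RG-like ratio of 0.876 became 0.883 with 4 markers, 0.889 without cells of more than 1 class and 0.870 at 3000 to 8000 UMIs. In the Smo cKO 0.916 became 0.929, 0.937 and 0.947 under these, and 0.901 as the mean per cell. The ferret ratio over both sets for all PyN-like cells, 1.03, became 1.03 with 2 and 1.04 with 4 markers, 1.05 as the mean per cell, 1.04 with standard RPs only, 1.02 without cells of more than 1 class, 1.06 at 3000 to 8000 UMIs, and 1.03 and 1.02 in set 1 and set 2 alone, both below the value over both sets. The cause of each shift was not tested. In windows of UMIs per cell, chosen after seeing the data, the genotype ratio of cycling RG-like cells was 1.04 and 1.01 in the 2 windows from 3000 to 8000 UMIs against 0.956 over all, and that of maturing PyN-like cells 1.04 at 5000 to 8000 UMIs against 0.967. Clusters gave no maturing PyN-like value, because no cluster had that class as its commonest. No paired analysis was possible because each mouse genotype is 1 library. With 1 library per genotype, a difference between libraries and one between genotypes cannot be told apart at any depth.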
